A study of Homo sapiens with 6 samples.

Results

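Gene expression was compared between the control libraries of OE33 and Eso26, 2 established human cell lines of esophageal adenocarcinoma, a cancer of glandular cells in the lower esophagus. The comparison joined the OE33 control column and the Eso26 control column of the deposited count tables by gene identifier. A gene was kept when it reached 5 CPM (counts scaled to a common library size) in either of the 2 libraries. The rule kept 11205 of 37493 genes, from 2 of the 6 samples of the series. The study used RNA interference against PPARG, a nuclear receptor for fatty acids, in both lines and also mapped its binding by chromatin immunoprecipitation; its title concerns PPARG and master regulator transcription factors. The control cells received a non-silencing siRNA and the other RNA libraries an siRNA against PPARG (siPPARG), both delivered with Lipofectamine RNAiMAX, a transfection reagent. OE33 grew in DMEM and Eso26 in RPMI-1640, each with 10% fetal bovine serum, penicillin and streptomycin, so a difference of line and one of medium cannot be told apart. Each line has 1 control and 1 siPPARG library; the design text speaks of triplicates, and the sources used here do not say if a column is one culture or several added together.

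Adenocarcinoma of the esophagus commonly arises from Barrett's esophagus, in which the squamous lining is replaced by glandular cells that mix gastric and intestinal features. Intestinal identity is set by homeobox factors of the CDX family together with the nuclear receptor HNF4A, which switch on the genes of the absorptive brush border. Gastric mucous cells carry other products, such as claudin 18 and prostate stem cell antigen, and the same tumours often signal through receptor kinases such as ERBB2, EGFR and MET.

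The 4 RNA libraries held between 16866996 and 23019840 counts, and 3 counts, the level set here as the bound for a count of 0, equalled 0.130 to 0.178 CPM. Where a line is given a pair of values, the first value is its control library and the second its siPPARG library. Folds compare the 2 control libraries on normalised CPM, and the brackets after a fold hold its 95% interval, an exact binomial interval that covers counting error only. A fold written as at least sets a count of 0 to 3 counts. The lower limit of the 95% interval lies below such a value, at 3345-fold in place of 4115-fold for the gene DUSP5. The defining epithelial markers were present in both lines. EPCAM, an adhesion molecule of glandular epithelium, measured 2105 and 2089 CPM in Eso26 against 525 and 528 CPM in OE33. KRT8, a keratin of simple epithelium, measured 999 and 774 CPM in Eso26 against 1312 and 1328 CPM in OE33, and CDH1, the epithelial cadherin, 463 and 417 CPM in Eso26 against 597 and 683 CPM in OE33. Markers of other cell types were mostly low, with 14 immune markers summing to 1.42 CPM in the Eso26 control and 9.20 CPM in the OE33 control. The 12 hepatocyte markers summed to 2.29 CPM in the Eso26 control and 1.37 CPM in the OE33 control, and the 11 fibroblast markers to 6.86 and 7.35 CPM in these 2 controls. The endothelial list summed to 6.34 CPM in the Eso26 control and 77.4 CPM in the OE33 control, where ENG, a TGF-beta co-receptor, gave 59.97 CPM. ESAM, another member, also reached 5 CPM in the OE33 control, with a log2 fold of 2.62. In these 2 controls 4 and 3 of the 8 members stood at 0. Neuroendocrine markers summed to 9.49 CPM in the Eso26 control and 36.7 CPM in the OE33 control, of which ENO2, a glycolytic enzyme, gave 4.74 and 36.1 CPM. In such bulk libraries fewer cells of a type and less RNA per cell cannot be told apart.

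The lines differed widely. Of the kept genes, 4226 (37.7%) differed past 2-fold between the controls, 2364 (21.1%) higher in OE33 and 1862 (16.6%) higher in Eso26. Past 4-fold there were 1117 and 744 genes, and past 16-fold 468 and 377. With 1 library per line in the control comparison no test of it is possible, and 2-fold serves as a size only. Of the kept genes, 947 reached 5 CPM only in the OE33 control and 835 only in the Eso26 control. The filter therefore partly fixes the counts and medians of every list below that holds such genes. The siPPARG libraries are a separate measurement of the same lines: 2093 genes (18.7%) were past 2-fold higher in OE33 in both pairs, and 1569 genes (14%) past 2-fold higher in Eso26 in both. A line effect was tested over the 4 libraries with edgeR's quasi-likelihood test, treatment being a second term. Benjamini-Hochberg adjusted p was under 0.05 for 8122 genes (72.5%), of which 4080 (36.4%) were higher in OE33 and 4042 (36.1%) higher in Eso26. The libraries of a line had different treatments and were not replicate cultures, and the fit left 1 residual degree of freedom, so these p-values measure only the spread between these libraries. Every list below is to be read beside the shares over all kept genes. Toward OE33 and Eso26 these were 21.1% and 16.6% past 2-fold and 36.4% and 36.1% called. Genes described below as higher or lower in one line than in the other passed the test of the line effect unless their p is printed. Differences between the control and siPPARG library of the same line rest on 1 library each and were not tested.

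**Figure D1:**
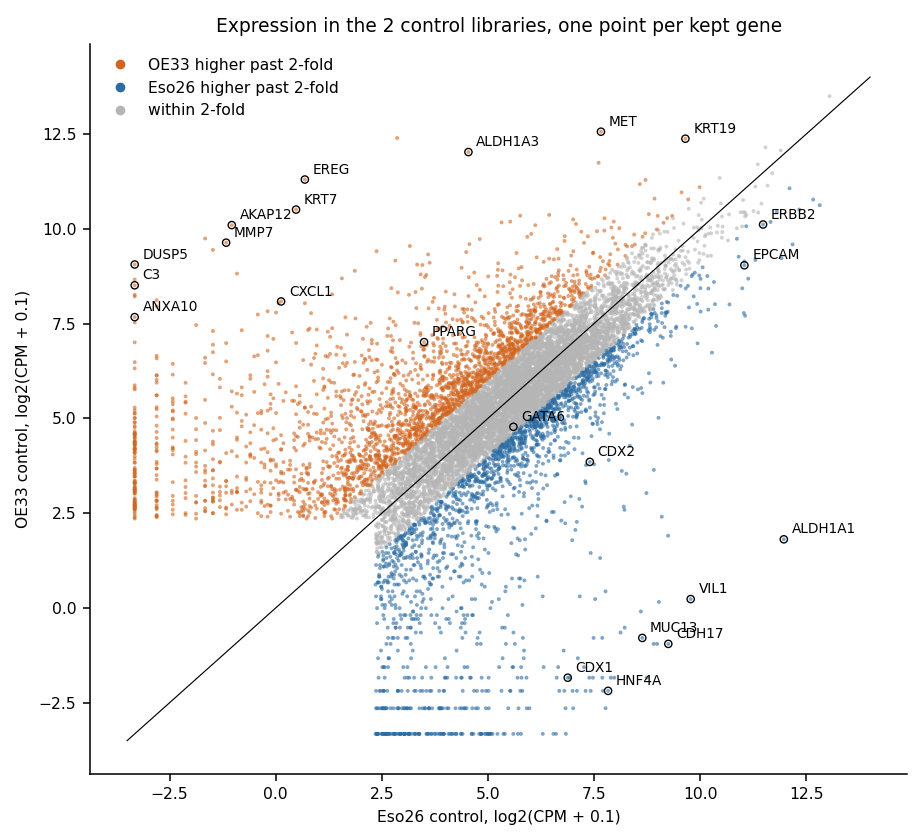
Expression of each kept gene in the Eso26 control (x axis) and the OE33 control (y axis), both as log2 of CPM plus 0.1. Orange points are the 2364 genes past 2-fold higher in OE33, blue points the 1862 past 2-fold higher in Eso26 and grey points the rest; the columns and rows of points at the left and lower edges are genes with 0 or a few counts in one line.

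Genes of intestinal identity were mostly higher in Eso26. HNF4A (ENSG00000101076), the nuclear receptor that drives intestinal and liver programmes, measured 227 and 230.5 CPM in Eso26 against 0.119 and 0 CPM in OE33, with 2 counts in the OE33 control. Its fold toward Eso26 was 1903-fold (526 to 15716) (edgeR's quasi-likelihood test, adjusted p = 5.5e-07). CDX1, a homeobox factor of intestinal epithelium, measured 118 and 155 CPM in Eso26 against 0.179 and 0 CPM in OE33, a fold of 656-fold (224 to 3184). CDX2, the other CDX factor, was present in both lines at 169 and 203 CPM in Eso26 against 14.3 and 12.7 CPM in OE33, and was 11.8-fold (10.3 to 13.5) higher in the Eso26 control. Both Eso26 libraries therefore lay above both OE33 libraries for all of HNF4A, CDX1 and CDX2, with CDX2 the only one of them above the floor in OE33.

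Of 18 intestinal factors listed, 12 were kept, 9 were past 2-fold higher in Eso26 and 1 in OE33, and edgeR called 10 and 2 of them. Their median log2 fold was -3.07, beside 0.01 over all kept genes. Some members, HNF4A and CDX1 among them, reached 5 CPM only in Eso26, so the filter partly fixes that count and median. BCL11A, a zinc finger repressor, measured 48.3 and 42.3 CPM in Eso26 against 0 and 0.057 CPM in OE33, at least 269.5-fold higher in the Eso26 control. ASCL2, the Wnt-driven factor of intestinal stem cells, measured 48.4 and 60.8 CPM in Eso26 against 0.538 and 0.456 CPM in OE33. TFCP2L1, HNF4G, MYB and VDR were likewise higher in Eso26, by 10.3-fold (8.40 to 12.7), 7.03-fold (6.17 to 8.05), 5.29-fold (4.59 to 6.11) and 2.17-fold (1.999 to 2.35). NR5A2, a nuclear receptor of gut endoderm, was higher in Eso26 by only 1.82-fold (1.53 to 2.18). The exceptions were KLF4, a factor of differentiating epithelium, at 109.5 and 119.9 CPM in OE33 against 62.6 and 49.3 CPM in Eso26, and PRDM1, a repressor of the fetal gut, at 25.4 and 33.2 CPM in OE33 against 0.259 and 0.376 CPM in Eso26. PRDM1 separated the lines by 98.1-fold (44.7 to 269) in the direction opposite to the rest.

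Targets and products of intestinal cells showed the same split. Of 14 kept genes of the enterocyte and brush border list, 10 were past 2-fold higher in Eso26 and 2 in OE33, and edgeR called 11 and 2. The median log2 fold was -7.41, or -6.78 with the 3 members at 0 counts set to their bound. CDH17, VIL1, USH1C, GPA33 and KRT20 reached 5 CPM only in Eso26, so the filter partly fixes that count and median. CDH17, the liver and intestine cadherin, measured 608 and 605 CPM in Eso26 against 0.418 and 0.285 CPM in OE33, 1454-fold (705 to 3616) higher in the Eso26 control. VIL1, the actin bundler of microvilli, measured 876 and 968 CPM in Eso26 against 1.08 and 1.37 CPM in OE33, a fold of 815-fold (515 to 1375). USH1C, a scaffold of the microvillus tip links, measured 178 and 196 CPM in Eso26 against 0.179 and 0.228 CPM in OE33, and GPA33, an intestinal surface antigen, 25.1 and 24.98 CPM in Eso26 against 0 and 0.057 CPM in OE33. KRT20, the keratin of differentiated intestinal cells, measured 79.3 and 61.5 CPM in Eso26 against 0.239 and 0.399 CPM in OE33. In OE33 each of these genes stayed below 2 CPM in both libraries. SLC5A1, the glucose transporter of the brush border, was chosen after its values were seen and measured 51.7 and 68.7 CPM in Eso26 against 0.179 and 0.171 CPM in OE33. The 2 members past 2-fold higher in OE33 were CA2, a carbonic anhydrase, with a log2 fold of 6.88, and SLC15A1, a peptide transporter, with 1.05.

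The promoters of SLC5A1 and MUC13, both higher in Eso26, are printed because they hold letters of the HNF4 motif, and were chosen for those matches. Each is the 150 bases before the gene's start, 5′ to 3′ on the gene's strand, from RefSeq on GRCh38.p14, with matches in capitals. SLC5A1 is at chr22:32043111-32043260 on the plus strand and MUC13 at chr3:124934752-124934901 on the minus strand.
SLC5A1: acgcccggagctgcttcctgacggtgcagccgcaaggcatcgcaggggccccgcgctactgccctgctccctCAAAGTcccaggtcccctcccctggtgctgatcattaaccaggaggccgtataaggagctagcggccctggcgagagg
MUC13: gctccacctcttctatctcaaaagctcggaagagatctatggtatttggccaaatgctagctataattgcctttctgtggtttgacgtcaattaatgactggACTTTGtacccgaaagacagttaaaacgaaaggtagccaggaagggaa
The HNF4 letters searched were CAAAGT, on both strands, so that ACTTTG is the reverse form. Of 27305 promoters of this length in the table, 6.0% held CAAAGT. Among 8897 kept genes with a promoter entry the share was 3.3%. Among 276 kept genes past 16-fold higher in Eso26 it was 8.33%, and among 328 past 16-fold higher in OE33 it was 4.27%. Such short letter matches describe the sequences and are not binding sites.

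Secretory products were mixed. Of 5 kept genes of the goblet and intestinal secretory list, 3 were past 2-fold higher in Eso26 and 1 in OE33. REG1A, a secreted lectin of regenerating gut, measured 157 and 165 CPM in Eso26 against 0.119 and 0.114 CPM in OE33, 1317-fold (364 to 10881) higher in the Eso26 control. LYZ, the lysozyme of Paneth cells, measured 24.6 and 24.8 CPM in Eso26 against 0.776 and 0.456 CPM in OE33, and AGR3, a disulfide isomerase, 5.69 and 7.38 CPM in Eso26 against 0.0597 and 0 CPM in OE33. AGR2, its goblet cell relative, did not separate the lines, at 135 and 140.3 CPM in Eso26 against 99.4 and 136 CPM in OE33 (edgeR's quasi-likelihood test, adjusted p = 0.11). FCGBP, a mucus-bound protein of goblet cells, went the other way at 43.2 and 34.8 CPM in OE33 against 0.129 and 0.517 CPM in Eso26.

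A few genes of gastric epithelium were higher in OE33. Of 22 genes of the gastric mucous and chief cell list in the tables only 5 were kept, and 4 of them were past 2-fold higher in OE33 and 1 in Eso26, all called by edgeR. Their median log2 fold was 7.87, or 7.49 with the 2 members at 0 counts set to their bound. ANXA10, CLDN18 and PSCA reached 5 CPM only in OE33, so the filter partly fixes that count and median. ANXA10 (ENSG00000109511), an annexin of gastric epithelium, had 0 counts in both Eso26 libraries and 203 and 82.8 CPM in OE33. The control fold was at least 1573-fold (edgeR's quasi-likelihood test, adjusted p = 9e-07). CLDN18, the claudin of stomach epithelium, also had 0 counts in both Eso26 libraries, with 23.3 and 17.6 CPM in OE33. PSCA, a surface protein of gastric mucous cells, measured 64.6 and 26.2 CPM in OE33 against 0.0431 and 0 CPM in Eso26, and CYSTM1, a small membrane protein, 64.1 and 63.4 CPM in OE33 against 15.4 and 15.8 CPM in Eso26. MUC1, the membrane mucin in the same list, was higher in Eso26, at 43.9 and 59.7 CPM in Eso26 against 12.2 and 8.78 CPM in OE33. ANXA10 and PSCA were lower in the OE33 siPPARG library than in its control, and both stayed above the Eso26 libraries.

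Other mucins and keratins followed no single direction. MUC13, a membrane mucin of the intestine, measured 397 and 379.7 CPM in Eso26 against 0.478 and 1.03 CPM in OE33, 832-fold (422 to 1927) higher in the Eso26 control. MUC4, another membrane mucin, measured 35.4 and 36.9 CPM in OE33 against 0.431 and 0.47 CPM in Eso26, 82.1-fold (44.3 to 172) higher in the OE33 control. The adhesion molecules CEACAM5 and CEACAM6 were higher in OE33 by 30.3-fold (23.7 to 39.3) and 26.8-fold (22.6 to 31.9), and CD44, the hyaluronan receptor, by 24.2-fold (22.1 to 26.6). Among 7 kept simple epithelial keratins, 4 were past 2-fold higher in OE33 and 2 in Eso26. KRT7 (ENSG00000135480), the keratin of ducts and of gastric-type glands, measured 1452 and 1411 CPM in OE33 against 1.29 and 1.32 CPM in Eso26, a fold of 1123-fold (786 to 1664) (edgeR's quasi-likelihood test, adjusted p = 3.1e-07). KRT23 ran the opposite way at 479 and 469 CPM in Eso26 against 0.418 and 0.513 CPM in OE33, and KRT19, a keratin of simple epithelium, measured 5309 and 5092 CPM in OE33 against 803 and 972 CPM in Eso26. The lines were thus separated by KRT7 in one direction and by KRT20 and KRT23 in the other, with no overlap of libraries. Keratins, CEACAM genes and other close relatives share sequence, and the handling of reads that map to several genes was not given in the sources used here.

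**Figure D2:**
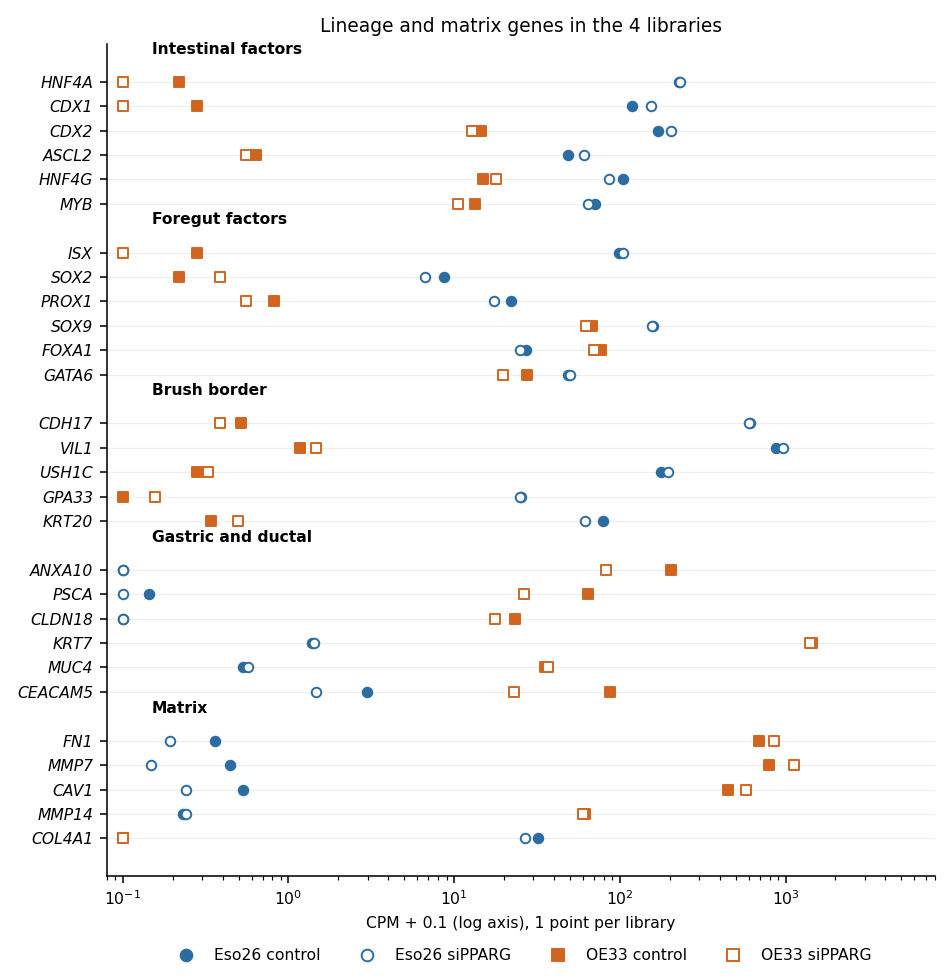
Lineage and matrix genes (rows) in the 4 libraries, as CPM plus 0.1 on a log axis. Filled symbols are control and open symbols siPPARG libraries, blue circles Eso26 and orange squares OE33; a symbol at the left edge has 0 counts, and where only one symbol of a line is seen the other lies under it. In all rows shown both libraries of one line lie above both of the other.

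The 15 kept genes of the foregut and gastric factor list included 8 past 2-fold higher in Eso26 and 3 in OE33, with a median log2 fold of -1.21. The members with wide margins toward Eso26 are not all foregut factors by textbook role. ISX, an intestine-specific homeobox factor, measured 98.2 and 105 CPM in Eso26 against 0.179 and 0 CPM in OE33. SOX2, the factor of squamous and gastric epithelium, measured 8.54 and 6.58 CPM in Eso26 against 0.119 and 0.285 CPM in OE33, PROX1 21.9 and 17.3 CPM in Eso26 against 0.717 and 0.456 CPM in OE33 and FOXA3 20.4 and 23.2 CPM in Eso26 against 1.67 and 1.25 CPM in OE33. SOX9, PDX1 and ONECUT2 were higher in Eso26 by 2.36-fold (2.21 to 2.52), 2.36-fold (1.74 to 3.24) and 8.33-fold (4.91 to 15.2), and FOXQ1 by 1.59-fold (1.45 to 1.75). FOXA1, a pioneer factor of endoderm, and HHEX were higher in OE33 by 2.87-fold (2.61 to 3.17) and 3.23-fold (2.49 to 4.21). GATA4 and FOXA2 did not pass edgeR's quasi-likelihood test, with adjusted p-values of 0.77 and 0.91. GATA4 measured 16.4 and 17.1 CPM in Eso26 against 17.1 and 15.8 CPM in OE33 and FOXA2 13.3 and 18.8 CPM in Eso26 against 20.1 and 13.5 CPM in OE33.

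The 4 regulators ELF3, KLF5, GATA6 and EHF, which drive glandular programmes of the upper gut, were expressed in both lines. GATA6, a factor of endoderm, measured 48.4 and 49.6 CPM in Eso26 against 27.3 and 19.5 CPM in OE33, 1.77-fold (1.59 to 1.98) higher in the Eso26 control. ELF3, an epithelial ETS factor, measured 419 and 384 CPM in OE33 against 229 and 269 CPM in Eso26, 1.83-fold (1.76 to 1.90) higher in the OE33 control. KLF5, a factor of proliferating epithelium, measured 222 and 156 CPM in OE33 against 109 and 102 CPM in Eso26. EHF, the other ETS factor, measured 524 and 459 CPM in OE33 against 123 and 110.4 CPM in Eso26, a fold of 4.25-fold (4.08 to 4.44). In all 4 the libraries of the lines did not overlap, and edgeR called 3 higher in OE33 and GATA6 higher in Eso26.

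PPARG (ENSG00000132170), the gene targeted by the siRNA, measured 11.2 CPM in the Eso26 control and 129 CPM in the OE33 control, 11.5-fold (10.1 to 13.2) higher in OE33. In the siPPARG libraries it measured 9.45 CPM in Eso26 and 17.8 CPM in OE33, 1.89-fold (1.58 to 2.26) higher in OE33. The Eso26 siPPARG library was thus hardly lower than its control, with overlapping 95% counting intervals of 8.19 to 10.9 CPM and 9.85 to 12.6 CPM, whereas the OE33 siPPARG library was far lower than its own. The difference between the lines at baseline was thus far wider than in the siPPARG pair, and the OE33 siPPARG library lay nearer to the Eso26 libraries than to its own control. Across the line fit the adjusted p of PPARG was 0.0078 (edgeR's quasi-likelihood test). Of 13 kept genes of the PPAR and RXR receptor list, 4 were past 2-fold higher in OE33 and 1 in Eso26, a share of 38.5% beside 37.7% over all kept genes. PPARD, the receptor most widely expressed in epithelia, measured 186 and 281 CPM in OE33 against 21.04 and 24.7 CPM in Eso26, and the coactivator MED1 279 and 307 CPM in OE33 against 63.9 and 57.1 CPM in Eso26. RXRA, the partner of PPAR receptors, measured 134 and 129 CPM in OE33 against 60.7 and 71.6 CPM in Eso26. PPARGC1A, the coactivator of mitochondrial genes, was higher in Eso26 by 3.20-fold (2.11 to 5.01).

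Of 15 kept PPAR target genes, 9 were past 2-fold higher in OE33 and 2 in Eso26, and edgeR called 9 and 4, with a median log2 fold of 1.28. Over all kept genes 21.1% and 16.6% were past 2-fold and 36.4% and 36.1% were called. AQP3, a glycerol channel, measured 678 and 392 CPM in OE33 against 5.09 and 3.25 CPM in Eso26, 133-fold (111 to 161) higher in the OE33 control. VNN1, a pantetheinase, measured 99.2 and 129.6 CPM in OE33 against 0.604 and 0.517 CPM in Eso26, and PDK4, a kinase that shuts pyruvate dehydrogenase, 25.7 and 23.3 CPM in OE33 against 0.302 and 0.611 CPM in Eso26. ANGPTL4, a lipase inhibitor, had 0 counts in both Eso26 libraries and 5.97 and 11.2 CPM in OE33. In OE33 AQP3 was lower and VNN1 and ANGPTL4 higher in the siPPARG library than in its control, and in every case both OE33 libraries lay above both Eso26 libraries. KRT20, which is also listed as a PPAR target, was one of the 2 past 2-fold higher in Eso26.

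Of 22 kept genes of fatty acid synthesis, 6 were past 2-fold higher in OE33 and 2 in Eso26, a share of 36.4%, near the 37.7% over all kept genes, with a median log2 fold of 0.41. The widest margin was FADS1, a desaturase of long chain fatty acids, at 85.3 and 81.3 CPM in OE33 against 1.68 and 1.98 CPM in Eso26, and its neighbour FADS2 measured 8.30 and 9.46 CPM in OE33 against 1.08 and 1.88 CPM in Eso26. ACACA, the carboxylase that commits carbon to fatty acids, SCD, the stearoyl desaturase, and FASN, the synthase itself, were chosen after their values were seen. ACACA measured 357 and 284 CPM in OE33 against 80.6 and 79.8 CPM in Eso26 and SCD 1337 and 1069 CPM in OE33 against 442 and 584 CPM in Eso26. FASN did not separate the lines, at 356 and 277 CPM in OE33 against 301 and 333 CPM in Eso26 (edgeR's quasi-likelihood test, adjusted p = 0.82). In cholesterol synthesis and uptake 2 of 26 kept genes were past 2-fold higher in OE33 and 6 in Eso26, a share of 30.8%. The median log2 fold of that list was -0.55. NPC1L1, the intestinal cholesterol importer, measured 23.8 and 25.2 CPM in Eso26 against 0.179 and 0.057 CPM in OE33. INSIG1, the sterol sensor that holds back SREBP, measured 298 and 323 CPM in Eso26 against 58.7 and 96.9 CPM in OE33. The efflux pump ABCA1 measured 17.3 and 31.1 CPM in OE33 against 0.172 and 0.517 CPM in Eso26. For fatty acid oxidation the split was 5 against 7 of 26, a share of 46.2% beside 37.7% over all kept genes. CPT1A, the gate of mitochondrial uptake, was 10.1-fold (9.07 to 11.3) higher in the OE33 control. ACAA2, the last enzyme of the cycle, was 4.94-fold (4.48 to 5.46) higher in the Eso26 control. ETFB, an electron carrier of that pathway, measured 9.14 and 9.50 CPM in Eso26 against 0 and 0.057 CPM in OE33.

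All 13 mitochondrially encoded mRNAs were past 2-fold higher in Eso26 in both pairs, with log2 folds between -3.35 and -1.90 and a median of -2.59. They made up 2.81% and 2.75% of counts in Eso26 and 0.533% and 0.664% in OE33. MT-ND1, a subunit of complex I, measured 2129 and 2009.6 CPM in Eso26 against 209 and 322 CPM in OE33, 10.2-fold (9.86 to 10.6) higher in the Eso26 control. MT-ND4, another subunit, measured 3863 and 3635 CPM in Eso26 against 596 and 751 CPM in OE33. Nuclear genes of the respiratory chain showed a smaller difference of the same sign. Of 23 kept, 6 were past 2-fold higher in Eso26 and 0 in OE33, a share of 26.1%, below the 37.7% over all kept genes. edgeR called 15 higher in Eso26 and 1 in OE33, beside 36.1% and 36.4% of all kept genes. The median log2 fold was -0.79. COX5A, a subunit of cytochrome oxidase, measured 252 and 294 CPM in Eso26 against 87.2 and 89.7 CPM in OE33, and NDUFS1, of complex I, 379 and 352 CPM in Eso26 against 164 and 142 CPM in OE33. Glycolysis and hypoxia genes had 12 of 25 past 2-fold higher in OE33 and 1 in Eso26, with a median of 0.73. ALDOC, an aldolase, measured 68.4 and 80.3 CPM in OE33 against 0.776 and 0.847 CPM in Eso26, HK1, a hexokinase, 187 and 174 CPM in OE33 against 6.73 and 6.63 CPM in Eso26, and SLC16A3, the lactate exporter, 239 and 333 CPM in OE33 against 12.03 and 11.9 CPM in Eso26. NDRG1, a hypoxia-induced gene, was 11.99-fold (11.1 to 13.02) higher in the OE33 control, and EGLN3, an oxygen sensor, 13.2-fold (11.5 to 15.1) higher in the Eso26 control. The part of the mitochondrial share in the other differences was not tested.

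**Figure D3:**
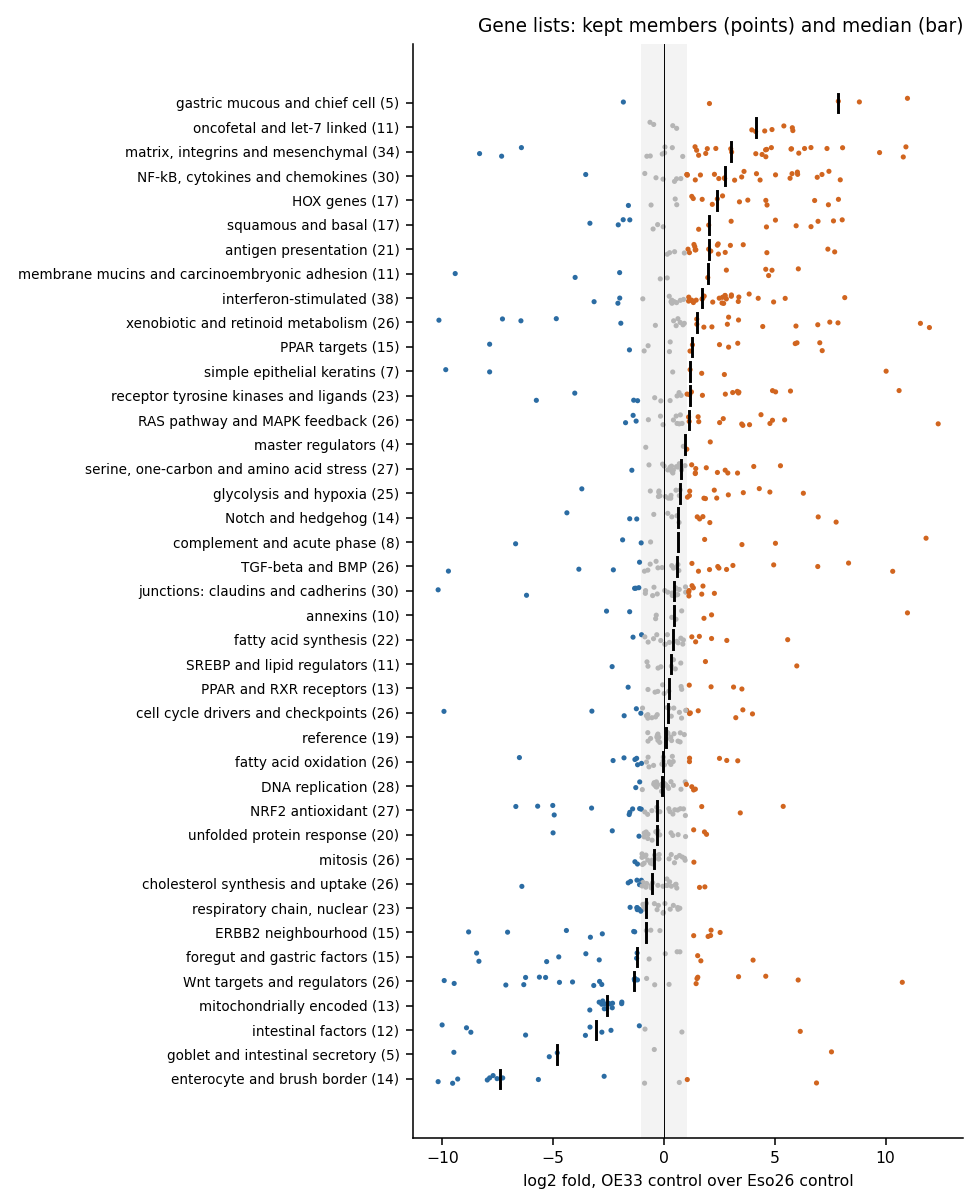
Log2 fold of OE33 control over Eso26 control (x axis) for the kept members of the lists with 4 or more kept, 1 list left out (rows, number kept in brackets). Points are genes, orange past 2-fold higher in OE33, blue past 2-fold higher in Eso26 and grey between, and the black bar is the median. Brush border genes (median -7.41) lie lowest and gastric mucous genes (7.87) highest, and the filter partly fixes both medians.

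Growth factor receptors and their ligands differed by list and by member. Of 23 kept receptor tyrosine kinases and ligands, 13 were past 2-fold higher in OE33 and 4 in Eso26, and edgeR called 16 and 5, with a median log2 fold of 1.16. EREG, a ligand of EGFR, measured 2517 and 1672 CPM in OE33 against 1.51 and 0.376 CPM in Eso26, 1667-fold (1199 to 2394) higher in the OE33 control (edgeR's quasi-likelihood test, adjusted p = 4.5e-07). TGFA, another EGFR ligand, measured 322 and 351 CPM in OE33 against 9.70 and 14.8 CPM in Eso26. EGFR and its ligand AREG, chosen after their values were seen, measured 607 and 651 CPM in OE33 against 70.7 and 61.1 CPM in Eso26 and 592 and 640.1 CPM in OE33 against 86.9 and 42.7 CPM in Eso26. The receptor and 3 of its ligands were thus higher in OE33 in both pairs. MET, the receptor for hepatocyte growth factor, measured 6033 and 7078 CPM in OE33 against 202 and 164 CPM in Eso26, a fold of 29.8-fold (28.96 to 30.7). FGFR1 measured 14.2 and 13.6 CPM in OE33 against 0.172 and 0.188 CPM in Eso26, and INSR, the insulin receptor, 8.58 and 7.20 CPM in Eso26 against 0.0597 and 0.228 CPM in OE33, a fold of 144-fold (25.5 to 5703) toward Eso26 that rests on 1 count in the OE33 control. ERBB2, the partner receptor of EGFR, was abundant in both lines at 2857 and 3408 CPM in Eso26 against 1106 and 1061 CPM in OE33, 2.58-fold (2.54 to 2.63) higher in the Eso26 control.

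Of 15 kept neighbours of ERBB2 on its chromosome arm, 7 were past 2-fold higher in Eso26 and 5 in OE33. PPP1R1B, a phosphatase inhibitor encoded near ERBB2, measured 153 and 198 CPM in Eso26 against 0.239 and 0.228 CPM in OE33, a fold of 641-fold (250.2 to 2354). PNMT and ZPBP2, in the same list, measured 5.82 and 8.80 CPM in Eso26 against 0.179 and 0.114 CPM in OE33 and 13.3 and 13.2 CPM in Eso26 against 0 and 0 CPM in OE33. STARD3, MIEN1 and GRB7, which are often co-amplified with ERBB2, had log2 folds of -0.60, -0.80 and -0.19. MED1, MED24, CDK12 and PSMD3 were higher in OE33, with log2 folds of 2.12, 1.99, 2.10 and 2.53.

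Genes of the RAS pathway and of MAPK feedback, taken as 1 list, were mostly higher in OE33. Of 26 kept, 14 were past 2-fold higher in OE33 and 3 in Eso26, edgeR called 19 and 4, and the median log2 fold was 1.12. DUSP5, a nuclear phosphatase that acts on ERK, had 0 counts in both Eso26 libraries and 532 and 453 CPM in OE33, at least 4115-fold higher in the OE33 control. DUSP4 measured 319.7 and 378 CPM in OE33 against 7.24 and 6.68 CPM in Eso26, and DUSP6, the cytoplasmic ERK phosphatase, 87.98 and 55.4 CPM in OE33 against 3.10 and 2.21 CPM in Eso26. FOSL1, a subunit of AP-1, measured 269 and 269.9 CPM in OE33 against 12.9 and 7.85 CPM in Eso26, and IER3, an immediate early gene, 668 and 526 CPM in OE33 against 22.3 and 15.2 CPM in Eso26.

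Wnt targets and regulators were mostly higher in Eso26. Of 26 kept, 16 were past 2-fold higher in Eso26 and 7 in OE33, edgeR called 18 and 8, and the median log2 fold was -1.33. APCDD1, LEF1, SP5 and WNT11 reached 5 CPM only in Eso26 and DKK1 only in OE33, so the filter partly fixes that count and median. APCDD1, a membrane antagonist induced by Wnt, measured 97.1 and 125 CPM in Eso26 against 0 and 0.057 CPM in OE33, and LEF1, a partner of beta-catenin, 113 and 113 CPM in Eso26 against 0.0597 and 0.114 CPM in OE33. SP5, a direct target, measured 30.9 and 35.1 CPM in Eso26 against 0.119 and 0.342 CPM in OE33, and WNT11, a ligand, 12.8 and 15.3 CPM in Eso26 against 0.0597 and 0 CPM in OE33. AXIN2, LGR5, NOTUM and RNF43, which are negative regulators or stem cell targets of the pathway, had log2 folds of -5.63, -4.13, -5.35 and -4.72. DKK1, a secreted Wnt inhibitor, was the reverse, with 1 and 0 counts in Eso26 and 248 and 275 CPM in OE33. WNT7B, a ligand, and PORCN, the enzyme that acylates Wnt ligands, had log2 folds of 6.06 and 3.36.

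In the TGF-beta and BMP list 11 of 26 kept genes were past 2-fold higher in OE33 and 4 in Eso26. BMP7 measured 237 and 232 CPM in Eso26 against 0.179 and 0.057 CPM in OE33, 1325-fold (453 to 6426) higher in the Eso26 control. FST, the follistatin that binds activin, and INHBA, the activin subunit, had 0 counts in both Eso26 libraries, with 128 and 59.8 CPM and 32.1 and 35.97 CPM in OE33. BMP2, another BMP ligand, was the reverse of BMP7, at 18.99 and 29.2 CPM in OE33 against 0.517 and 0.0941 CPM in Eso26. ID1, a target of BMP signals, measured 309 and 189 CPM in OE33 against 2.41 and 1.51 CPM in Eso26. Of the 14 kept Notch and hedgehog genes 6 were past 2-fold higher in OE33 and 3 in Eso26. SMO, the hedgehog transducer, had 0 counts in both Eso26 libraries and 21.7 and 23.2 CPM in OE33, and GLI2 measured 17.7 and 20.7 CPM in OE33 against 0.0431 and 0.047 CPM in Eso26. DLL1, a Notch ligand, measured 20.7 and 24.6 CPM in Eso26 against 0.896 and 0.741 CPM in OE33.

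Matrix, integrin and mesenchymal genes were higher in OE33. Of 34 kept, 24 were past 2-fold higher in OE33 and 3 in Eso26, edgeR called 26 and 4, and the median log2 fold was 3.03. FN1 (ENSG00000115414), fibronectin, measured 695 and 856 CPM in OE33 against 0.259 and 0.0941 CPM in Eso26, 2685-fold (1233 to 7319) higher in the OE33 control (edgeR's quasi-likelihood test, adjusted p = 3.6e-07). MMP7, the epithelial matrilysin, measured 793 and 1123 CPM in OE33 against 0.345 and 0.047 CPM in Eso26, MMP14 61.2 and 59.6 CPM in OE33 against 0.129 and 0.141 CPM in Eso26 and CAV1, the coat protein of caveolae, 451 and 576 CPM in OE33 against 0.431 and 0.141 CPM in Eso26. In both Eso26 libraries these genes stayed below 1 CPM. They passed the filter through OE33 alone, so the filter partly fixes the count and median of this list. The 3 members past 2-fold higher in Eso26 were the paired collagen genes COL4A1 and COL4A2 and TNC, an adhesion-modulating glycoprotein. COL4A1, a chain of basement membrane collagen, measured 32.04 and 26.6 CPM in Eso26 against 0 and 0 CPM in OE33, and COL4A2 had a log2 fold of -6.44. TNC, chosen after its values were seen, measured 218 and 155 CPM in Eso26 against 1.25 and 2.17 CPM in OE33. COL1A1, the collagen of fibroblasts, did not pass the test, at 5.56 and 6.35 CPM in Eso26 against 3.58 and 5.02 CPM in OE33 (edgeR's quasi-likelihood test, adjusted p = 0.088). 

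Several genes of squamous epithelium were counted in OE33 and not in Eso26. Of 17 kept, 10 were past 2-fold higher in OE33 and 4 in Eso26, with a median log2 fold of 2.02. SPRR3, SPRR1B, IVL, KRT13 and DSC3 reached 5 CPM only in OE33, so the filter partly fixes that count and median. SPRR3, SPRR1B, IVL and KRT13, genes of squamous epithelium, had 0 counts in both Eso26 libraries and 20.01, 12.3, 6.15 and 9.85 CPM in the OE33 control. In the OE33 siPPARG library they measured 31.4, 24.3, 7.30 and 1.82 CPM. DSC3, a desmosomal cadherin of squamous cells, measured 37.7 and 29.8 CPM in OE33 against 0.0431 and 0 CPM in Eso26. The 4 members higher in Eso26 were KRT17, DSC2, ECM1 and KLK6, with log2 folds of -2.07, -1.84, -3.34 and -1.54. Among 30 kept claudins, cadherins and other junction genes 8 were past 2-fold higher in OE33 and 5 in Eso26. The share was 43.3%, beside 37.7% over all kept genes. CLDN2, the pore-forming claudin of leaky epithelium, measured 20.5 and 12.3 CPM in Eso26 against 0.179 and 0 CPM in OE33.

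HOX genes, which mark position along the body axis, were mostly higher in OE33. Of 17 kept, 13 were past 2-fold higher in OE33 and 1 in Eso26, edgeR called 15 and 2, and the median log2 fold was 2.41. HOXB8, HOXB2 and HOXC10 reached 5 CPM only in OE33, so the filter partly fixes that count and median. HOXB8 measured 43.6 and 34.5 CPM in OE33 against 0.0862 and 0.0941 CPM in Eso26, HOXB2 11.05 and 10.8 CPM in OE33 against 0 and 0.0941 CPM in Eso26 and HOXC10 31.8 and 28.4 CPM in OE33 against 0.0862 and 0 CPM in Eso26. HOXA13, a gene of the hindgut end of the axis, was the member past 2-fold higher in Eso26, with a log2 fold of -1.61. Of 11 kept oncofetal genes, 7 were past 2-fold higher in OE33 and 0 in Eso26, edgeR called 9 and 0, and the median was 4.13. IGF2BP1, PEG10 and PLAG1 reached 5 CPM only in OE33, so the filter partly fixes that count and median. HMGA2, a chromatin protein of embryonic growth, measured 144 and 66.1 CPM in OE33 against 6.08 and 2.40 CPM in Eso26, and IGF2BP1, an mRNA-binding protein of the fetus, 34.1 and 42.6 CPM in OE33 against 0.517 and 0.188 CPM in Eso26. PEG10, an imprinted gene, measured 17.7 and 10.8 CPM in OE33 against 0.216 and 0.423 CPM in Eso26, and PLAG1, a zinc finger activator, 13.3 and 13.3 CPM in OE33 against 0.216 and 0 CPM in Eso26. In each of these genes the Eso26 libraries lay below both OE33 libraries.

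Few genes of the division machinery were past 2-fold apart. Of 26 kept mitosis genes, 1 was past 2-fold higher in OE33 and 2 in Eso26, a share of 11.5%. Of 28 DNA replication genes the numbers were 4 and 2, a share of 21.4%, beside 37.7% over all kept genes. In each of these 2 lists 0 genes were past 2-fold higher in OE33 in both pairs and 2 in Eso26. edgeR called 17 mitosis genes higher in Eso26 and 5 in OE33, beside 36.1% and 36.4% of all kept genes. The median log2 fold of the mitosis list was -0.47 between the controls and -0.75 in the siPPARG pair. NDC80, a kinetochore protein, measured 99.7 and 101 CPM in Eso26 against 40.1 and 32.4 CPM in OE33, and PLK1, the mitotic kinase, 199 and 143 CPM in OE33 against 78.2 and 79.9 CPM in Eso26. MKI67, the proliferation marker, chosen after its values were seen, measured 602 and 506 CPM in OE33 against 311 and 259 CPM in Eso26. Of 26 kept cell cycle drivers and checkpoints, 7 were past 2-fold higher in OE33 and 5 in Eso26, a share of 46.2%. CCND2, a D-type cyclin, measured 506 and 454 CPM in Eso26 against 0.418 and 0.228 CPM in OE33, 1211-fold (588 to 3012) higher in the Eso26 control, whereas CCND1 measured 478 and 661 CPM in OE33 against 40.5 and 27.9 CPM in Eso26. CCND2 was thus the higher in both Eso26 libraries and CCND1 in both OE33 libraries. CDKN2A and CDKN2B, inhibitors of the kinases that D-type cyclins activate, measured 232 and 225 CPM in OE33 against 24.5 and 26.5 CPM in Eso26 and 107 and 123 CPM in OE33 against 6.64 and 3.86 CPM in Eso26. Among genes of growth arrest and cell death, BTG2 and SESN1 were higher in Eso26 by 23.7-fold (19.5 to 29.1) and 17.2-fold (13.7 to 21.7), and BAX and FAS, which promote cell death, higher in OE33 by 25.9-fold (19.4 to 35.4) and 15.1-fold (12.1 to 19.002).

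Enzymes of retinoid metabolism were exchanged between the lines. ALDH1A1 (ENSG00000165092), a retinaldehyde dehydrogenase, measured 4009 and 3898 CPM in Eso26 against 3.40 and 2.74 CPM in OE33, 1177-fold (909 to 1555) higher in the Eso26 control (edgeR's quasi-likelihood test, adjusted p = 3.1e-07). ALDH1A3, which catalyses the same step, measured 4159.7 and 3500.3 CPM in OE33 against 23.2 and 20.4 CPM in Eso26, 179.6-fold (165 to 196) higher in the OE33 control. Each line thus had 1 of the 2 dehydrogenases at a high level and the other at no more than 23.2 CPM. DHRS9, a retinol dehydrogenase, had 0 and 1 counts in Eso26 and 404 and 284 CPM in OE33. CYP24A1, the enzyme that degrades vitamin D, had 0 counts in both Eso26 libraries and 305 and 261 CPM in OE33. VDR, the receptor that induces it, was 2.17-fold (1.999 to 2.35) higher in the Eso26 control. UGT2B7, a glucuronosyltransferase, measured 33.03 and 54.3 CPM in OE33 against 0.0431 and 0 CPM in Eso26, while UGT1A6, which shares exons with the other UGT1A genes, had a log2 fold of -7.29. Of 26 kept xenobiotic and retinoid genes, 14 were past 2-fold higher in OE33 and 5 in Eso26, with a median of 1.48.

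Antioxidant genes were split. Of 27 kept NRF2 targets and regulators, 10 were past 2-fold higher in Eso26 and 3 in OE33. edgeR called 12 and 9, beside 36.1% and 36.4% of all kept genes. The share past 2-fold was 48.1%, beside 37.7% over all kept genes. The median log2 fold was -0.33 between the controls and 0.024 in the siPPARG pair. AKR1C3, an aldo-keto reductase, measured 546 and 601 CPM in Eso26 against 5.20 and 4.96 CPM in OE33, 105-fold (85.2 to 131) higher in the Eso26 control, and its close relative AKR1C2 53.1 and 31.04 CPM in Eso26 against 1.61 and 1.37 CPM in OE33. GPX2, the gut glutathione peroxidase, measured 425 and 449 CPM in Eso26 against 8.06 and 6.67 CPM in OE33, and ABCC2, a conjugate pump, 38.1 and 25.3 CPM in Eso26 against 1.08 and 1.08 CPM in OE33. AKR1B1, an aldose reductase, was the reverse at 444 and 269.9 CPM in OE33 against 10.6 and 14.5 CPM in Eso26. Of 27 kept genes of serine, one-carbon and amino acid stress, 11 were past 2-fold higher in OE33 and 1 in Eso26, a share of 44.4%. CHAC1 and TRIB3, targets of ATF4, measured 22.99 and 26.8 CPM in OE33 against 1.29 and 0.847 CPM in Eso26 and 113 and 177 CPM in OE33 against 11.2 and 10.3 CPM in Eso26. In the unfolded protein response list the split was 3 against 3 of 20, a share of 30%. DNAJC3, a chaperone cofactor, was 5.05-fold (4.73 to 5.41) higher in the Eso26 control.

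Inflammatory genes were mostly higher in OE33. Of 30 kept NF-kB, cytokine and chemokine genes, 23 were past 2-fold higher in OE33 and 1 in Eso26, edgeR called 26 and 1, and the median log2 fold was 2.73. A cluster of neighbouring CXC chemokines that attract neutrophils was part of this list. CXCL1 measured 271 and 491 CPM in OE33 against 0.992 and 0.47 CPM in Eso26, 273-fold (182 to 431) higher in the OE33 control, and CXCL8, interleukin 8, 202 and 428 CPM in OE33 against 3.02 and 1.69 CPM in Eso26. CXCL6 had 0 counts in both Eso26 libraries and 79.6 and 114 CPM in OE33. CXCL2 and CXCL3 measured 48.4 and 113 CPM in OE33 against 1.38 and 0.706 CPM in Eso26 and 96.3 and 167 CPM in OE33 against 1.77 and 0.847 CPM in Eso26. All 5 were higher in the OE33 siPPARG library than in the OE33 control and lower, or at 0, in the Eso26 libraries. These paralogs share sequence, and reads common to them may have been split by the counting.

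The promoters of the 5 chemokines are printed because all of them carry the same NF-kB letters, GGAATTTCC, in capitals; the AP-1 letters TGACTCA are in capitals where present. Each is again the 150 bases before the start, 5′ to 3′ on the gene's strand, from RefSeq on GRCh38.p14. The positions are chr4:73740419-73740568, chr4:73836528-73836677 and chr4:73869243-73869392 on the plus strand for CXCL8, CXCL6 and CXCL1, and chr4:74038690-74038839 and chr4:74099196-74099345 on the minus strand for CXCL3 and CXCL2.
CXCL8: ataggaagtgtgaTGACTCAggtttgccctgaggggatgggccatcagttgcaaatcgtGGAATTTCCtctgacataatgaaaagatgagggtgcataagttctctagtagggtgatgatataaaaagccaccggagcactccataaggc
CXCL6: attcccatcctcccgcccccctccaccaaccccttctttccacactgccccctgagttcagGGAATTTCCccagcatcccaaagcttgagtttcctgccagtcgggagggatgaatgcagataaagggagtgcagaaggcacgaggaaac
CXCL1: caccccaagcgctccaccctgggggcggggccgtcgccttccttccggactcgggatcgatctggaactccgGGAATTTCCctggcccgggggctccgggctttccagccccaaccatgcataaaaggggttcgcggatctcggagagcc
CXCL3: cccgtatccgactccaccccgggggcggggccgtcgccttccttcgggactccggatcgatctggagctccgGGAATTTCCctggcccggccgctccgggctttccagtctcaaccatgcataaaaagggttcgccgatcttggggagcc
CXCL2: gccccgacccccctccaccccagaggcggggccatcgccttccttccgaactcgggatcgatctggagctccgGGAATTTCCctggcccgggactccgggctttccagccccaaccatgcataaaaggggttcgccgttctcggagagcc
The match began 91 bases before the start in CXCL8, 89 in CXCL6, 78 in CXCL1 and CXCL3 and 77 in CXCL2. Searched on both strands, GGAATTTCC occurred in 0.26% of the 27305 promoters in the table and 0.25% of the 8897 of kept genes. It occurred in 5 of 328 promoters (1.52%) of genes past 16-fold higher in OE33, these 5, and in 0 of 276 of genes past 16-fold higher in Eso26. The AP-1 letters TGANTCA were in 5.49% and 4.71% of these promoters, beside 2.23% of kept genes.

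Other cytokine and NF-kB genes, and some of the acute phase, were also higher in OE33. SAA1 and SAA2, acute phase proteins, measured 56.2 and 126 CPM in OE33 against 0.302 and 0.423 CPM in Eso26 and 22.4 and 38.1 CPM in OE33 against 0.0862 and 0.0941 CPM in Eso26, and IL1A, an epithelial alarm cytokine, 24.8 and 25.02 CPM in OE33 against 0.0431 and 0 CPM in Eso26. CSF2, a growth factor for granulocytes and macrophages, measured 6.45 and 8.09 CPM in OE33 against 0 and 0.047 CPM in Eso26. NFKB2, an NF-kB subunit, and TNFAIP3, its feedback inhibitor, were chosen after their values were seen and measured 165 and 181 CPM in OE33 against 14.4 and 12.1 CPM in Eso26 and 324 and 609 CPM in OE33 against 15.96 and 13.6 CPM in Eso26. C3, the central complement protein, had 0 and 1 counts in Eso26 and 364 and 418 CPM in OE33, at least 2814-fold higher in the OE33 control. LCN2, an iron-binding acute phase protein, measured 772 and 891 CPM in OE33 against 23.5 and 28.6 CPM in Eso26. C4BPB, a complement inhibitor, was the reverse at 10.3 and 8.42 CPM in Eso26 against 0 and 0.114 CPM in OE33, as was CLU, the chaperone clusterin, at 39.3 and 36.2 CPM in Eso26 against 10.7 and 14.02 CPM in OE33. The complement and acute phase list was evenly split, with 4 of 8 kept genes past 2-fold higher in OE33 and 3 in Eso26, and edgeR called 4 and 4.

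Interferon-stimulated genes were mostly higher in OE33. Of 38 kept, 26 were past 2-fold higher in OE33 and 3 in Eso26 between the controls, and edgeR called 34 and 3. The median log2 fold was 1.73 between the controls and 3.40 between the siPPARG libraries, and all 38 had a higher fold in the siPPARG pair. IFITM3, an inhibitor of virus entry, measured 213 and 522 CPM in OE33 against 0.647 and 0.706 CPM in Eso26, and IFI44L, a feedback regulator, 99.9 and 260.3 CPM in OE33 against 2.16 and 2.07 CPM in Eso26. SAMD9L, a restriction factor, measured 198 and 440.3 CPM in OE33 against 6.34 and 4.42 CPM in Eso26, and IFIT1, a sensor of uncapped RNA, 183 and 857 CPM in OE33 against 9.53 and 10.8 CPM in Eso26. In Eso26 the control and siPPARG values of these genes lay close together, while in OE33 the siPPARG value was the higher in each. The difference between the pairs was not tested.

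Antigen presentation genes went with them. Of 21 kept, 17 were past 2-fold higher in OE33 and 0 in Eso26, edgeR called 20 and 0, and the median log2 fold was 2.01. CD274, the checkpoint ligand PD-L1, measured 47.7 and 68.4 CPM in OE33 against 0.129 and 0.188 CPM in Eso26, 369-fold (126 to 1793) higher in the OE33 control on 3 counts in Eso26. CD74, the class II invariant chain, measured 31.3 and 45.8 CPM in OE33 against 0.0862 and 0.282 CPM in Eso26, and MICB, a ligand of natural killer cells, 61.6 and 81.97 CPM in OE33 against 2.37 and 2.35 CPM in Eso26. The list does not hold all class II genes, and a class II HLA gene outside it was among those seen in Eso26 only. NLRC5, the activator of class I genes, measured 61.8 and 131 CPM in OE33 against 5.09 and 6.02 CPM in Eso26 and HLA-C 893 and 1061 CPM in OE33 against 112 and 134 CPM in Eso26. HLA-B and B2M, also of class I, were chosen after their values were seen and measured 891 and 1657 CPM in OE33 against 164 and 186 CPM in Eso26 and 1237 and 1937 CPM in OE33 against 656 and 608 CPM in Eso26. These class I genes were present in both lines, with Eso26 the lower of the 2 in every library. HLA genes vary in sequence between people and resemble each other, so part of their difference can depend on mapping to the reference, which was not tested.

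Genes seen in one line only were counted at 20 CPM or more in one control and under 0.5 CPM in the other. There were 109 (0.973% of kept genes) in OE33 and 111 (0.991%) in Eso26, and 91 and 94 of them met the same rule in the siPPARG pair. In the other line's control 39 and 30 had 0 counts, and 31 and 16 had 0 counts in both of its libraries. The most counted in OE33 included UCA1, a long non-coding RNA, at 857 and 1089 CPM in OE33 against 0.216 and 0.282 CPM in Eso26, AKAP12, a scaffold of protein kinase A, at 1094 and 981 CPM in OE33 against 0.388 and 0.376 CPM in Eso26, and STEAP1, a metalloreductase, at 277 and 331 CPM in OE33 against 0.0431 and 0.141 CPM in Eso26. ABLIM3, an actin-binding protein, had 0 counts in both Eso26 libraries and 297 and 325 CPM in OE33, and PLAT, tissue plasminogen activator, measured 184 and 169.6 CPM in OE33 against 0 and 0.047 CPM in Eso26. In Eso26 they included NELL2, a secreted protein, at 427 and 424 CPM in Eso26 against 0.179 and 0 CPM in OE33, DACH1, a transcriptional repressor, at 218 and 199 CPM in Eso26 against 0.0597 and 0.228 CPM in OE33, and MALRD1, a gut regulator of bile acid synthesis, at 209 and 209 CPM in Eso26 against 0.119 and 0 CPM in OE33. MSI1, an RNA-binding protein of stem cells, had 0 counts in both OE33 libraries and 93.1 and 93.7 CPM in Eso26. KIRREL1 and PTPRO measured 114 and 76.5 CPM in Eso26 against 0 and 0.057 CPM in OE33 and 129 and 128 CPM in Eso26 against 0.0597 and 0.114 CPM in OE33.

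Kept genes were also placed in genome order, using the RefSeq gene table for order only, and the median log2 fold was taken over each run of 9 neighbours. Over 10911 such windows the median was -0.04, with 5th and 95th percentiles of -1.02 and 1.26, and 971 windows had a median past 2-fold toward OE33 and 584 toward Eso26. The highest window ran from ANKRD17 to EREG, with a median of 5.69 and the chemokines above inside it; ANKRD17, RASSF6 and MTHFD2L in that window had log2 folds of -1.07, -1.87 and -0.33. The next, from SAMD9L to PDK4, had a median of 4.95 and held PEG10 and SGCE, an imprinted neighbour at 34.7 and 39.4 CPM in OE33 against 0.129 and 0.047 CPM in Eso26. From DOCK4 to CAV1 all 9 genes were past 2-fold higher in OE33, with a median of 3.09. From RPS6 to CDKN2B the median was 3.24 and all log2 folds were between 0.86 and 4.85, with MTAP, the neighbour of CDKN2A, at 496 and 339 CPM in OE33 against 52.7 and 43.6 CPM in Eso26. The MTAP, CDKN2A and CDKN2B genes, which are often deleted together in carcinoma, had counts in all 4 libraries. The window from PODXL2 to GATA2-AS1 (3.15) held GATA2, a factor of blood and bladder cells, at 36.9 and 37.1 CPM in OE33 against 0.0862 and 0 CPM in Eso26, and that from RSBN1L to SEMA3A (3.26) held 3 semaphorin genes.

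Of the 6 lowest windows, 4 were mostly zinc finger genes. From LINC00665 to ZNF585A the median was -6.26 and all 9 genes were past 2-fold higher in Eso26, and from ZNF304 to ZNF134 the median was -6.14 with 7 of 9. LINC00665, a non-coding RNA, measured 56.01 and 60.8 CPM in Eso26 against 0.119 and 0.057 CPM in OE33, and ZNF134 20.6 and 19.6 CPM in Eso26 against 0 and 0.057 CPM in OE33. ZNF567 and ZNF304 had 0 counts in both OE33 libraries and 13.5 and 14.7 CPM in the Eso26 control. From GOLGA3 to ZNF268 the median was -3.70. CHFR, a mitotic checkpoint ligase, and its neighbour ZNF605 had 0 counts in both OE33 libraries, with 41.1 and 42.3 CPM and 42.1 and 33.5 CPM in Eso26. The window from CTSD to KCNQ1OT1 (-3.86) held the imprinted genes KCNQ1 and KCNQ1OT1, at 12.6 and 11.3 CPM in Eso26 against 0.776 and 0.855 CPM in OE33 and 5.82 and 5.27 CPM in Eso26 against 0.239 and 0.342 CPM in OE33, beside ASCL2. In that window CD81 was higher in OE33, at 176 and 192 CPM in OE33 against 95.8 and 107 CPM in Eso26. The windows from ZCRB1 to PLEKHA8P1 (-3.25), with NELL2, and from ZNF101 to ZNF708 (-3.15) completed the lowest 6. KCNQ1 and KCNQ1OT1 overlap on opposite strands, and without a stated strand setting their reads cannot be told apart.

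**Figure D4:**
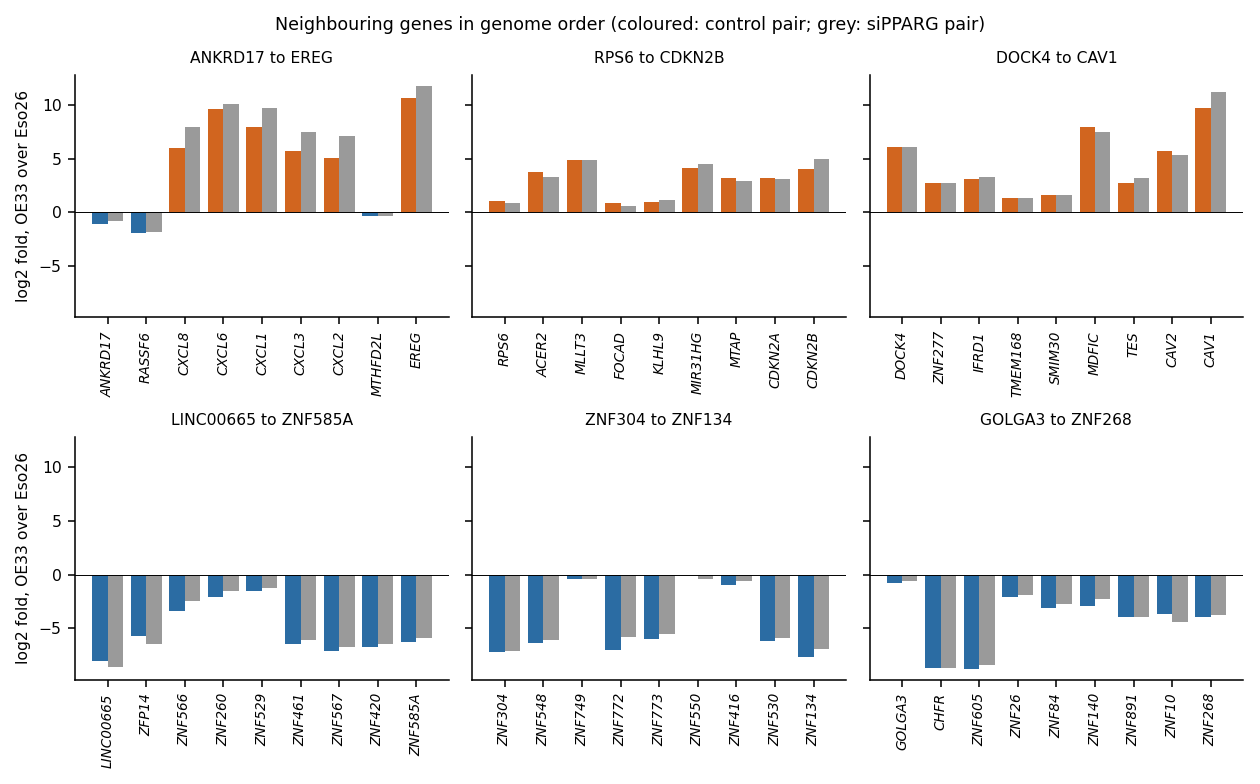
Log2 fold of OE33 over Eso26 (y axis) for the 9 genes of 6 windows in genome order. Coloured bars are the control pair, orange higher in OE33 and blue higher in Eso26, and grey bars the siPPARG pair; in the upper right window all 9 genes are past 2-fold higher in OE33, and in the lower left all 9 are past 2-fold higher in Eso26.

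The control difference was met again in the siPPARG pair, which shares both lines but no library. Of the 4226 genes past 2-fold between the controls, 3662 (86.7%) were past 2-fold in the same direction in that pair, 564 were within 2-fold and 0 were past 2-fold in the opposite direction. Across the 11205 kept genes Pearson's r of the 2 log2 folds was 0.980 and Spearman's rho 0.955, given as a description since the genes share both lines and their libraries. The median absolute log2 fold between the control lines was 0.75, beside 0.15 between the libraries of Eso26 and 0.15 between those of OE33. The values within a line used another small offset and libraries scaled in separate pairs, so the measures are not fully alike. All 845 genes past 16-fold and all 1016 genes between 4-fold and 16-fold kept their sign. Of the 19 reference genes, commonly used for scaling, 0 were past 2-fold between the controls, with log2 folds between -0.73 and 0.92 and a median of 0.11. edgeR called 6 of them higher in OE33 and 7 in Eso26, beside 36.4% and 36.1% of all kept genes. B2M, the highest at 0.92, had a log2 fold of 1.67 in the siPPARG pair.

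**Figure D5:**
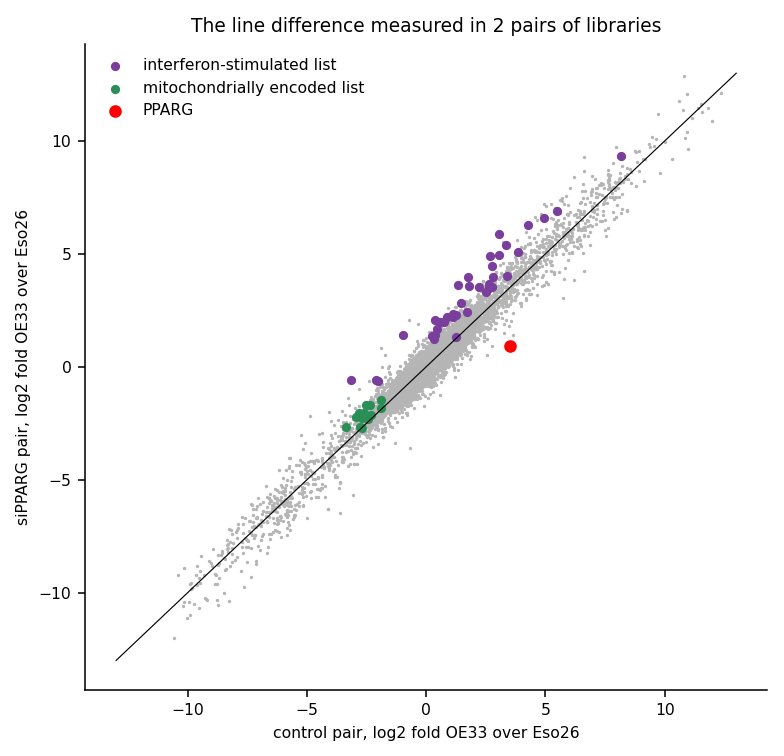
Log2 fold of OE33 over Eso26 in the control pair (x axis) and the siPPARG pair (y axis) for each kept gene, with the line of equality. All 38 interferon-stimulated genes (purple) lie above the line, the mitochondrially encoded genes (green) lie low on both axes, and PPARG (red) lies at 3.52 on the x axis and 0.91 on the y axis.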

How the data were processed

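RNA was measured by sequencing in 4 libraries of Eso26 and OE33, grouped by the sample titles. The authors deposited 1 count table per line, holding raw counts per gene as whole numbers, per the file headers. The submitters' processing notes name Trim Galore, STAR, Bowtie, Picard, MACS2 and the build hg19, without roles. The counter, its strand setting and the annotation were not given in the sources used here. Of 37533 rows, 40 repeated an identifier and were summed, and 37402 of 37493 identifiers matched the name table. The tables held 0 columns of other samples. The PPARG peak lists were not used.

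TMM factors were computed on each pair (edgeR 4.0.16 in R 4.3.3; 1.01 for the Eso26 control and 0.993 for the OE33 control). Log2 folds used a prior count of 2, and genes at 5 CPM in either control were kept. Of these, 947 reached 5 CPM only in the OE33 control and 835 only in the Eso26 control. Such genes passed through the line where they were high, so the filter partly fixes the counts and medians of lists that hold them. Ratios carry Clopper-Pearson 95% intervals, and a fold against 0 counts is a bound at 3 counts per library. The line effect was tested on the 4 libraries with edgeR's quasi-likelihood test, with line and treatment as terms and Benjamini-Hochberg adjustment over 11205 genes. Tested on counts simulated from the real means, with 11205 genes, the test called 98% of the 100 genes given a 2-fold change, 100% of the 100 given a 4-fold change and 7 genes given none. The simulation gave all genes a common dispersion of 0.0136, added no treatment effect and changed no other genes. In the real data 8122 genes were called, so these rates need not hold there. DESeq2 1.42.0 and limma 3.58.1 were alternatives.

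The 49 gene lists, their members and the tests were chosen with earlier results of these data known. Genes named were PPARG, ERBB2 and the 4 regulators, the kept foregut and intestinal factors, up to 5 members of every other list by absolute log2 fold, the 15 highest and 15 lowest folds, up to 10 genes seen in one line only per direction, and those in the 12 windows. A further 21 genes were added, of which 5 are the epithelial markers and the others were chosen after their values were seen. List members outside this rule appear with a log2 fold alone, chosen after their values were seen. XIST, Y-linked genes and clone names were not named, and a few genes, 1 list and 1 motif are not reported here. Promoters come from RefSeq on GRCh38.p14, and the RefSeq gene table gave gene order only.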

Additional observations from a re-analysis of the deposited data

Results flagged for a closer look

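In 8 genes past 2-fold between the controls the siPPARG pair had the opposite sign, and this difference between the pairs was not tested. For 3 genes of interferon responses, ZBP1, BATF2 and UBA7, the log2 fold of OE33 over Eso26 was -1.90, -1.73 and -1.54 in the controls and 0.82, 0.51 and 0.042 in the siPPARG pair. ZBP1, a sensor of unusual nucleic acids, measured 6.08 and 8.28 CPM in Eso26 against 1.55 and 14.6 CPM in OE33, and BATF2, a leucine zipper factor, 13.1 and 15.2 CPM in Eso26 against 3.88 and 21.7 CPM in OE33. UBA7, the enzyme that activates ISG15, measured 7.50 and 10.02 CPM in Eso26 against 2.51 and 10.3 CPM in OE33. In all 3 the Eso26 libraries lay close together and the OE33 siPPARG library was the higher of its line. GCLC, the rate-limiting enzyme of glutathione synthesis, had log2 folds of -1.10 and 0.024, at 245 and 136 CPM in Eso26 against 114 and 139 CPM in OE33. SULT2B1, a sterol sulfotransferase, had 1.16 and -0.042, and CAPN5, a calpain protease, 1.18 and -0.13. The non-coding RNAs LINC00513 and OLMALINC had 1.35 and -0.13, and 1.20 and -0.43. None of the 8 passed edgeR's quasi-likelihood test for the line effect, with adjusted p-values from 0.069 for GCLC to 0.64 for ZBP1. All 8 were chosen after their values were seen.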

How the results depend on the processing

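Without a filter on low counts the genes past 2-fold numbered 3783 higher in OE33 and 3616 higher in Eso26, in place of 2364 and 1862. At 4-fold they numbered 1117 and 744, and at 1.5-fold 3134 were higher in Eso26. Scaling by DESeq2 size factors, library totals or upper quartiles, a filter of 1 or 10 CPM, a prior count of 0.5 or 5 and the siPPARG pair left these counts within 1.5 times. The line effect gave between 3522 and 4010 genes higher in OE33 and between 3384 and 3938 higher in Eso26 when each library was left out in turn, the lone library being assumed to vary like the others, and 3767 and 3671 with DESeq2. In the siPPARG pair, among genes at 5 CPM there, the medians of the SREBP and lipid regulator list and the NRF2 list changed sign, to -0.014 and 0.032. In that pair 8 named genes changed sign, GCLC to 0.024, SULT2B1 to -0.042, ZBP1 to 0.82, CAPN5 to -0.13, BATF2 to 0.51, UBA7 to 0.042, LINC00513 to -0.13 and OLMALINC to -0.43; the cause was not tested. The line effect compared the lines within treatment. No paired analysis by replicate number was possible because each group holds 1 library. Depth limits genes under about 0.178 CPM, the level of 3 counts in the shallowest library.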

Other observations

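Zinc finger genes were looked at after the windows above were seen. Of 318 kept genes with a symbol made of ZNF and a number, 117 (36.8%) were past 2-fold higher in Eso26 and 27 in OE33, beside 16.6% and 21.1% of all kept genes. Their median log2 fold was -0.50 between the controls and -0.39 in the siPPARG pair. On chromosome 19, where many of these genes stand in clusters, 55 of 120 (45.8%) were past 2-fold higher in Eso26 and 27 were past 16-fold, and on the other chromosomes 62 of 198 (31.3%) and 7. These genes resemble each other in sequence, and the handling of reads that map to several of them was not given in the sources used here. The members were chosen with these values known, so the shares are a description with no test.

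Annexins, a family of calcium-dependent membrane-binding proteins, differed member by member. ANXA6 and ANXA4 were higher in Eso26, at 212 and 201 CPM in Eso26 against 34.9995 and 66.6 CPM in OE33 and 390.1 and 381 CPM in Eso26 against 133 and 146 CPM in OE33, and ANXA1, an anti-inflammatory annexin, was higher in OE33, at 423 and 397 CPM in OE33 against 95.6 and 45.3 CPM in Eso26. Of 10 kept, 3 were past 2-fold higher in OE33 and 2 in Eso26, a share of 50% beside 37.7% over all kept genes. Of the 2 kept cancer-testis genes, DDX43, a helicase of the germ line, had 0 counts in both Eso26 libraries and 24.1 and 23.03 CPM in OE33, and PRAME measured 9.53 and 12.3 CPM in Eso26 against 3.05 and 2.51 CPM in OE33.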
